A study of Mus musculus with 3 samples.

Results

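The genes described here encode 7 receptors through which platelets touch one another, the vessel wall, plasma lipids and immune cells: F11r, Jam3 and Esam of the junctional adhesion molecule (JAM) type, the scavenger receptor gene Cd36, and Cd47, Cd226 and Pear1. They were taken by name, and 6 of the 7 had a row among the 9822 genes of the tables; Jam3 (Entrez 83964, chromosome 9, 27097384 to 27155421 in GRCm38) had no row and was not analysed here. The samples were platelets purified from the blood of BALB/c males, 20 weeks old and wild type for the mRNA export gene Nxf1, as 3 libraries (replicates 1 to 3) in 1 group with no treatment and no contrast. Each replicate is labelled as a batch of its own, so batch and replicate cannot be told apart, and no label ties a replicate to its own animal, so the spread between libraries may be technical. In these bulk libraries, fewer cells of a type and less RNA per cell cannot be told apart.

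Platelets have no nucleus, and their mRNA was laid down by the parent megakaryocyte. Once platelets have adhered and aggregated, receptors that meet partners on a neighbouring cell come into play at the contact zone. JAM-type proteins are immunoglobulin-superfamily receptors that bind the like molecule on the next cell and hold scaffold proteins inside; JAM-A, the F11r product, is known to restrain signalling from the platelet integrin alpha IIb beta 3. CD36 binds oxidised lipoproteins, fatty acids and thrombospondin-1, CD47 marks a cell as self for macrophages, CD226 (DNAM-1) binds nectins, and PEAR1 becomes phosphorylated when platelets touch.

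The 3 libraries held 26974129, 25189231 and 26111636 counts for replicates 1, 2 and 3. Levels are in CPM, reads of a gene per 1000000 reads assigned to genes. Ratios between genes were taken only after division by the deposited gene length (CPM per 1000 bases). Percentiles, ranks, shares and list sums are by reads, without division by length, unless said otherwise. Ratios were also computed with the joined exons of GENCODE M21 basic transcripts as the length of both genes, a choice made after the data were seen, and are given where they differ by over 1.5 times. The counts in them stayed the deposited ones. The 7 platelet markers summed to 34145, 36084 and 36527 CPM, led by the chemokine genes Ppbp and Pf4, so platelet markers were high in every library. Red cell markers, with Hba-a1 and Hbb-b1 (globins) highest, summed to 49252, 5524 and 7100 CPM. In replicate 1 this sum exceeded that of the platelet markers, which sets replicate 1 apart.

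The receptors fell into 3 tiers. Cd226, Cd47 and Esam lay among the top 3% of genes by reads, F11r and Pear1 lower at percentiles 92.1 and 89.2, and Cd36 at percentile 26.8. Together the 6 genes took 0.271% ± 0.00470 of counts (SD, n = 3), of which Cd226 alone was 58.5%. Their median was 131 CPM per 1000 bases with the deposited lengths, against 1.49 over all 9822 genes. It would be lower with the GENCODE lengths, which put Cd47 at 88.3 in place of 287 CPM per 1000 bases. These values describe genes chosen for their role in platelets. All 6 reached 1 CPM in every library, as did 77.7% of all genes in the tables.

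**Figure D1:**
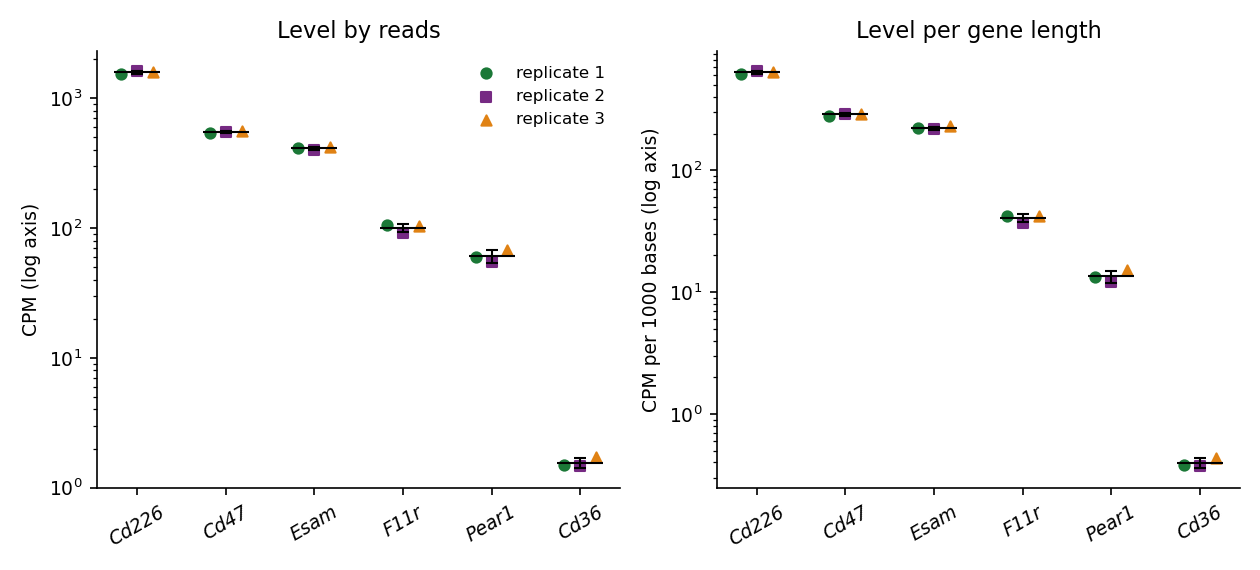
Levels of the 6 contact receptor genes in each library, in CPM (left) and in CPM per 1000 bases of gene length (right), on log axes; coloured points are replicates, the black line and bar are the mean and SD of the 3 libraries. On either scale the libraries of one gene lie close together and the genes run from Cd226 down to Cd36.

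Cd226 (Entrez 225825, chromosome 18, 89176954 to 89272232) encodes an immunoglobulin-superfamily receptor known from natural killer cells, T cells and platelets, where it was once named platelet and T cell activation antigen. It gave 41606, 41134 and 41359 reads, or 1542, 1633 and 1584 CPM, in replicates 1, 2 and 3. The values lay within 5.87% of the lowest, and the gene ranked 85 of 9822 by mean CPM (1586 ± 45.3, SD, n = 3). Markers of T and natural killer cells, led by Lck and Nkg7, summed to 22.7, 26.0 and 37.3 CPM over the 10 of 12 genes in the tables, with Cd3e and Klrb1c not among them. Their part in the Cd226 counts was not tested. Per length, Cd226 exceeded Lck by 6.96 ± 0.45 on the log2 scale (SD, n = 3), 125 times, in 3 of 3 libraries. With GENCODE lengths it was 69.5 times.

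The nectin and CD226 network around it was only partly covered by the tables. Of its 12 genes 5 had a row, and genes without a row have no measured upper limit here. Of the 5 genes, 4 reached 1 CPM in every library, as did 77.7% of all genes in the tables. The median of the 5 was 6.30 CPM per 1000 bases, against 1.49 over all genes. The known CD226 ligands Nectin2 and Pvr, and the competing receptors Tigit and Cd96, had no row. Crtam, a related lymphocyte receptor for another nectin-like protein, was present at 11.8 ± 0.603 CPM. Inside the cell, the kinase gene Fyn, which acts on CD226, was at 143 ± 5.64 CPM and the adaptor gene Grb2 at 45.8 ± 4.65 CPM (SD, n = 3). Cadm1, a nectin-like adhesion gene, was at 3.50 ± 0.356 CPM and was named after its value was seen.

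Cd226 was set beside a self-binding receptor of the same superfamily. Slamf1, a lymphocyte and platelet receptor that binds itself on the next cell, was at 631 ± 24.1 CPM per 1000 bases against 638 ± 18.2 for Cd226 (SD, n = 3). Their log2 ratio was 0.02 ± 0.08, with Cd226 higher in 1 of 3 libraries, so with the deposited lengths they did not differ beyond the spread. With GENCODE lengths Cd226 was lower in 3 of 3 libraries, at a log2 ratio of -0.83 ± 0.08. Against Gp1ba, the von Willebrand factor-binding chain, Cd226 was higher by 1.51 ± 0.17 on the log2 scale, 2.85 times, in 3 of 3 libraries, and by 1.57 times with GENCODE lengths. Tests of such ratios over 3 libraries cannot go below p = 0.25 (exact two-sided sign-flip permutation test), so the ratios are set against their SD only.

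Esam (Entrez 69524, chromosome 9, 37528089 to 37538319), which encodes endothelial cell-selective adhesion molecule, a junction protein of endothelium that platelets also carry, gave 410, 401 and 424 CPM. Those values lay within 5.83% of the lowest, at a mean of 412 ± 11.8 CPM (SD, n = 3) and 222 ± 6.35 CPM per 1000 bases. Endothelial markers summed to 89.9, 97.9 and 98.2 CPM over the 5 of 8 in the tables, led by Tie1 and Plvap. Tek, Emcn and Cldn5 had no row. Esam exceeded Tie1 by 3.98 ± 0.09 on the log2 scale per length, 15.8 times. The endothelial cadherin gene Cdh5, named here after its value was seen, was 493 times lower than Esam per length.

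F11r (Entrez 16456, chromosome 1, 171437561 to 171464593), which encodes JAM-A, was the lower of the JAM-type pair in the tables. It gave 105, 92.1 and 104 CPM, lowest in replicate 2, a mean of 100.5 ± 7.25 (SD, n = 3). Per length Esam exceeded it by 2.46 ± 0.08 on the log2 scale, 5.49 times, in all 3 libraries. Other members of the wider family were mostly absent from the tables: Jam2, the partner of Jam3, and 5 more of the 9 listed had no row. Cxadr, the coxsackievirus and adenovirus receptor gene, was below 1 CPM in every library and Clmp was at 3.07 ± 0.342 CPM.

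The exception was Vsig2, a family member with little known function, at 187, 185 and 195 CPM. Per length it lay above F11r by 2.00 ± 0.09 on the log2 scale and below Esam by 0.46 ± 0.01 (SD, n = 3). Vsig2 lies just downstream of Esam on the same strand of chromosome 9 (37539255 to 37544205 in GENCODE M21), 935 bases from its end. The ratio of the pair was nearly constant over the libraries (log2 0.47, 0.45 and 0.46). Whether reads running on from Esam contribute to the Vsig2 count was not tested.

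Partners of the JAMs were unevenly represented. The chains of LFA-1, the leukocyte integrin that JAM-A binds, were both abundant: Itgb2 at 396, 418 and 471 CPM and Itgal at 352, 316 and 401 CPM. Itgam, which forms the Mac-1 counter-receptor of JAM-C with Itgb2, was at 1.24 ± 0.191 CPM (SD, n = 3), 258 times lower than Itgal per length. All 8 listed integrin chains were detected, led by Itga2b, Itgb3 and Itgb1. Of 17 cytoplasmic partners 7 had a row, with a median of 2.31 CPM per 1000 bases, and 4 of these were detected. The highest were the phosphatase gene Ptpn1 (289 ± 37.4 CPM) and Csk, the kinase that holds Src inactive (44.6 ± 9.69 CPM). The polarity scaffold gene Pard3 had no row.

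Cd47 (Entrez 16423, chromosome 16, 49851328 to 49912503) had the lowest coefficient of variation of the 6 genes by CPM, 2.04%. It gave 538, 553 and 560.0 CPM, a mean of 550.4 ± 11.2 (SD, n = 3), with the highest library 4.08% above the lowest. With TMM factors, which set libraries to a common level over most genes, it gave 564, 578 and 512 CPM and varied by 6.29%, more than Cd36, Esam and Pear1. CD47 is also plentiful on red cells. In replicate 1, red cell markers were 8.92 times those of replicate 2 and Cd47 was at 538 against 553 CPM; the part of red cells in the Cd47 counts was not tested. The genes of the red cell CD47 complex were low: Slc4a1 (band 3) at 19.4, 1.39 and 2.87 CPM, Epb42 at 2.31 ± 0.283 CPM and Ank1 at 0.736 ± 0.264 CPM. Rhag and Rhd had no row. Slc4a1, itself on the red cell list, had the order of that list over the libraries.

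On the ligand side of CD47, Thbs1, encoding thrombospondin-1, which binds both CD47 and CD36, was at 640.3, 607 and 455 CPM, lowest in replicate 3. Per length Cd47 exceeded it by 1.57 ± 0.29 on the log2 scale (SD, n = 3), 2.96 times, but with GENCODE lengths the log2 ratio was -0.12 ± 0.29 and Cd47 was higher in 1 of 3 libraries. Sirpa, the macrophage receptor that reads CD47, was at 1.34 ± 0.346 CPM (SD, n = 3). Per length Cd47 exceeded Sirpa by 9.86 ± 0.38 on the log2 scale, 928 times, or 287 times with GENCODE lengths. Of the 10 genes listed around CD47, 9 were in the tables and 6 detected, led per length by the G protein gene Gnai2 (702 ± 32.2 CPM), the phosphatase gene Ptpn11 (722 ± 15.8 CPM) and Thbs1.

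Pear1 (Entrez 73182, chromosome 3, 87749097 to 87769110), the platelet endothelial aggregation receptor gene, varied most among the members by CPM, though not after TMM scaling, where F11r did (8.45% against 5.52%). It gave 59.8, 54.3 and 68.0 CPM, a mean of 60.7 ± 6.91 (SD, n = 3), with the highest library, replicate 3, 25.3% above the lowest, replicate 2. Exact Poisson 95% intervals, which cover counting error only, were 51.4 to 57.2 CPM in replicate 2 and 64.9 to 71.3 CPM in replicate 3, so these did not overlap. With TMM scaling the values were 62.7, 56.7 and 62.2 and replicate 3 was no longer the highest. Its relatives Megf6, Megf10 and Megf11 had no row, nor had Fcer1a, the immunoglobulin E receptor chain that binds PEAR1. Its ligand gene Svep1 was at 0.745 ± 0.269 CPM. Of 14 listed genes 10 were in the tables and 9 detected, with the signalling genes Ptpn11, Fyn and Src highest, Src at 30.9 ± 4.85 CPM.

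Cd36 (Entrez 12491, chromosome 5, 17781690 to 17888959) stood far below the rest. It gave only 40, 37 and 45 reads, or 1.48, 1.47 and 1.72 CPM, with exact Poisson 95% intervals of 1.06 to 2.02, 1.03 to 2.02 and 1.26 to 2.31 CPM. The intervals overlapped, and the coefficient of variation over libraries, 9.18%, was below the 15.7% that counting alone gives at this depth. At 0.397 ± 0.0364 CPM per 1000 bases (SD, n = 3), Cd36 lay 33.9 times below Pear1 and 1611 times below Cd226. With GENCODE lengths it was at 0.441 CPM per 1000 bases and 803 times below Cd226. Monocyte and macrophage markers, whose cells also make CD36, summed to 1333, 1564 and 1414 CPM, most of it the lysozyme gene Lyz2, with Fcgr1 second. Lyz2 alone was at 1387 ± 117 CPM. Of these markers 9 of 10 were in the tables, with a median of 1.56 CPM, and Cd14 had no row. The part of these markers in the Cd36 counts was not tested.

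Other scavenger receptor genes were low too. Of 17 listed, 9 were in the tables and 4 reached 1 CPM in every library, and 4 lay above Cd36 by mean level per length. Olr1, the receptor for oxidised low-density lipoprotein, was highest at 19.6, 16.3 and 16.5 CPM, 12.3 times Cd36 per length. Scarb1, the high-density lipoprotein receptor and a relative of Cd36, was at 5.50 ± 0.739 CPM (SD, n = 3), 4.45 times Cd36 per length, both in 3 of 3 libraries. Next was Cd163, the haptoglobin-haemoglobin receptor of macrophages, at 4.66 ± 0.570 CPM.

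A list of CD36 signalling genes was drawn up, with its ligand gene Thbs1, partner receptors and palmitoylation enzymes. Most of those in the tables lay above Cd36. So did most genes of any kind, since Cd36 was at percentile 18.4 of all genes per length. Of 21 listed, 17 were in the tables and 16 of them detected. The median of the 17 was 2.57 CPM per 1000 bases, against 0.397 for Cd36 and 1.49 over all genes. Mapk8 was the 1 that lay below Cd36. Lyn, a Src-family kinase associated with CD36, was at 707, 706 and 719.9 CPM, and Cyba, a subunit of the superoxide-producing oxidase, at 48.5 ± 0.768 CPM (SD, n = 3). Zdhhc4 and Zdhhc5, the palmitoylating enzymes of CD36, were both in the tables, whereas the partner receptors Tlr2, Tlr4 and Tlr6 were not. Many of these genes serve other platelet receptors as well.

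**Figure D2:**
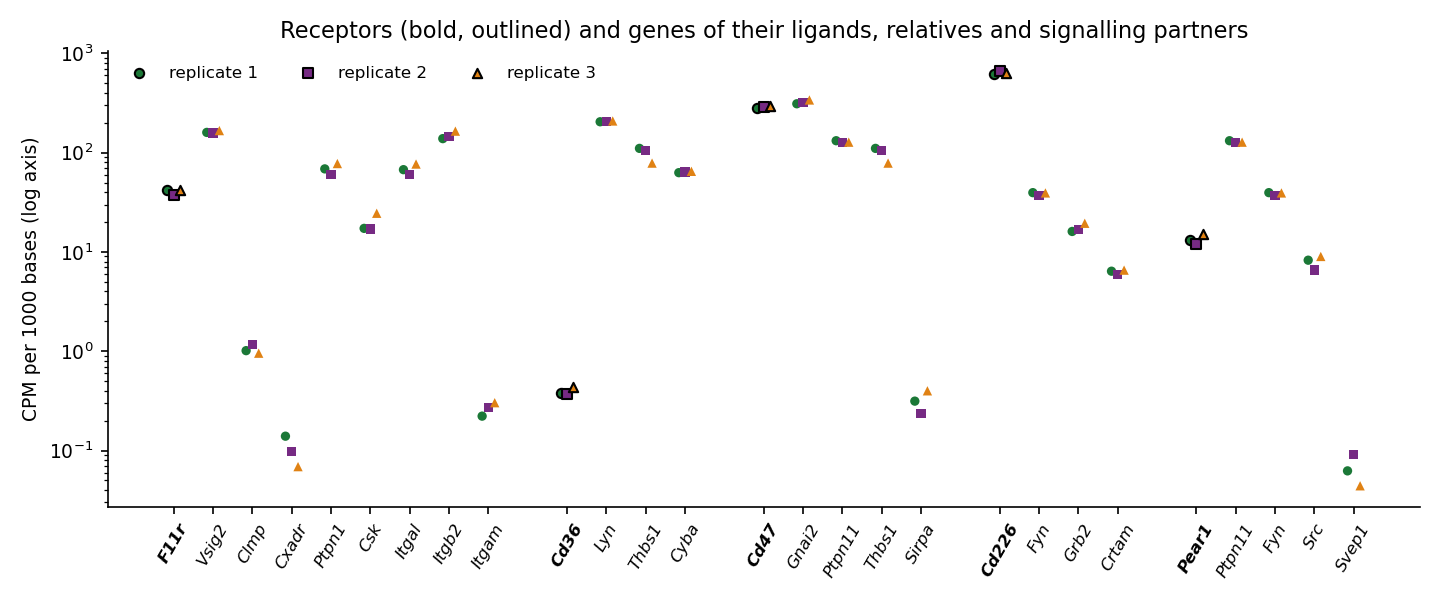
CPM per 1000 bases (log axis) of 5 receptor genes (bold, outlined) and, to the right of each, the highest genes of its partner lists and its known ligands or counter-receptors that were in the tables; points are the 3 replicates. Cd47 stands above the counter-receptor gene Sirpa and Pear1 above its ligand gene Svep1, with the ligand gene Thbs1 nearer to Cd47. Cd36 lies below the 3 partner genes shown for it, which were picked as the highest of their list. F11r, Cd47 and Pear1 also lie below some of the genes shown for them, and Cd226 does not.

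Promoter windows were compared by their letters. The RefSeq promoter table (GRCm38.p6, 250 bases before to 50 after a start) held windows for 4 of the 7 genes, and Cd47 and Cd36 are shown as the highest and the lowest of these. Cd47 had a pair of overlapping windows, of which the upstream one is given, on the plus strand at chr16:49855404-49855703. The Cd36 window is on the minus strand at chr5:17835847-17836146. Both lie at starts inside the gene spans given above. Letters are 5′ to 3′ on the gene's strand, and capitals mark GGAAG or its reverse complement CTTCC, the core letters bound by ETS-family factors.
Cd47: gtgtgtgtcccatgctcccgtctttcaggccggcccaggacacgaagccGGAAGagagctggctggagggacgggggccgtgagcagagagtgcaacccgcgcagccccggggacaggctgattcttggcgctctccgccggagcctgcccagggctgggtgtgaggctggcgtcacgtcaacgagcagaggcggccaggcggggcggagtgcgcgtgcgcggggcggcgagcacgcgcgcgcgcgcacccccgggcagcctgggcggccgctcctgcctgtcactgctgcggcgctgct
Cd36: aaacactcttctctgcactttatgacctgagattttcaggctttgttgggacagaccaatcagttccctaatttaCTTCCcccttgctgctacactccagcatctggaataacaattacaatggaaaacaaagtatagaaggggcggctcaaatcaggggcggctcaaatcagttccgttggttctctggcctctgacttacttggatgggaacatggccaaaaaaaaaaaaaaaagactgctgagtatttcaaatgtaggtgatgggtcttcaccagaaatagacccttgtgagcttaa

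The Cd47 window was 74.0% G and C with 35 CpG pairs, and the Cd36 window 43.0% with 3. F11r (60.3%, 19 CpG pairs) and Pear1 (75.0%, 33) were both richer than the median window, and the median of 32851 windows was 52.7%. A GGAAG match on either strand was found in the windows of all 4 genes, as in 71.4% of all windows. GATAA, the core letters of GATA factors, was found on neither strand in any of the 4, against 25.4% of all windows. Matches are descriptions of letters and say nothing on binding.

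Per length, the members were ordered Cd226, Cd47, Esam, F11r, Pear1 and Cd36, and all 5 neighbouring pairs kept this order in 3 of 3 libraries. The log2 steps were 1.15 ± 0.03, 0.37 ± 0.04, 2.46 ± 0.08, 1.59 ± 0.11 and 5.08 ± 0.07 (SD, n = 3), each several times its SD. The exact two-sided sign-flip permutation test gave p = 0.25 for each, the smallest that 3 libraries allow (0.25 after Benjamini-Hochberg adjustment over the 5 pairs). The place of Cd47 depends on the gene length used. The deposited length was 1919 bases, against 6231 for the joined exons of GENCODE M21 basic transcripts, 3.25 times as long; for Cd226 it was 2487 against 4494. For F11r, Esam and Pear1 the GENCODE lengths were 1.01 to 1.02 times the deposited ones, and for Cd36 0.900 times. With the GENCODE lengths Cd47 was at 88.3 CPM per 1000 bases, below Esam (log2 ratio -1.32 in place of 0.37), and Cd226 at 353, still the highest of the 6. The log2 ratio of Cd226 to Cd47 was then 2.00 in place of 1.15. The exons behind the deposited counts are not stated in the labels. Reads were not counted again over the GENCODE exons, so the GENCODE values pair the deposited counts with a length that may not match them. No other annotated gene overlapped exons of the 6.

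The spread of the members between libraries was set against that of all genes of like abundance. In the edgeR quasi-likelihood test of spread, with Benjamini-Hochberg adjustment over 8289 genes, 0 of the 6 members were called (lowest adjusted p = 0.982), nor was any at an unadjusted p under 0.05 or by DESeq2's dispersion outliers. Over all genes tested, 0.229% were called (19 genes), so a count of 0 in 6 is near the background and no result about the members. At an unadjusted p under 0.05, 356 genes passed. For the 5 genes other than Cd36, the coefficients of variation, 2.04% (Cd47) to 11.4% (Pear1), exceeded counting error alone, 0.492% (Cd226) to 2.51% (Pear1). Red cell markers spanned log2 values of -1.90 to 1.26 about their mean, while the members stayed between -0.16 and 0.16. By CPM F11r had the order of the red cell markers, highest in replicate 1 and lowest in replicate 2, over -0.12 to 0.07. With TMM scaling F11r was at 110.3, 96.2 and 95.1 CPM, lowest in replicate 3. The part of red cells in F11r was not tested. Esam, Cd36, Cd47 and Pear1 were highest in replicate 3 by CPM (with TMM scaling only Cd36 was). By CPM, the platelet, T and natural killer cell, B cell, neutrophil and endothelial marker lists were also highest in replicate 3, but not the monocyte and red cell lists. TMM scaling, which lowers replicate 3 and raises the others, was not applied to these list sums. Platelet markers lay at log2 values of -0.06, 0.02 and 0.04 about their mean. B cell markers, led by Cd74 and H2-Aa, summed to 222, 216 and 354 CPM. Neutrophil markers, led by S100a9 and S100a8, summed to 12.2, 17.7 and 21.3 CPM. The part of these lists in the small differences of the members was not tested.

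**Figure D3:**
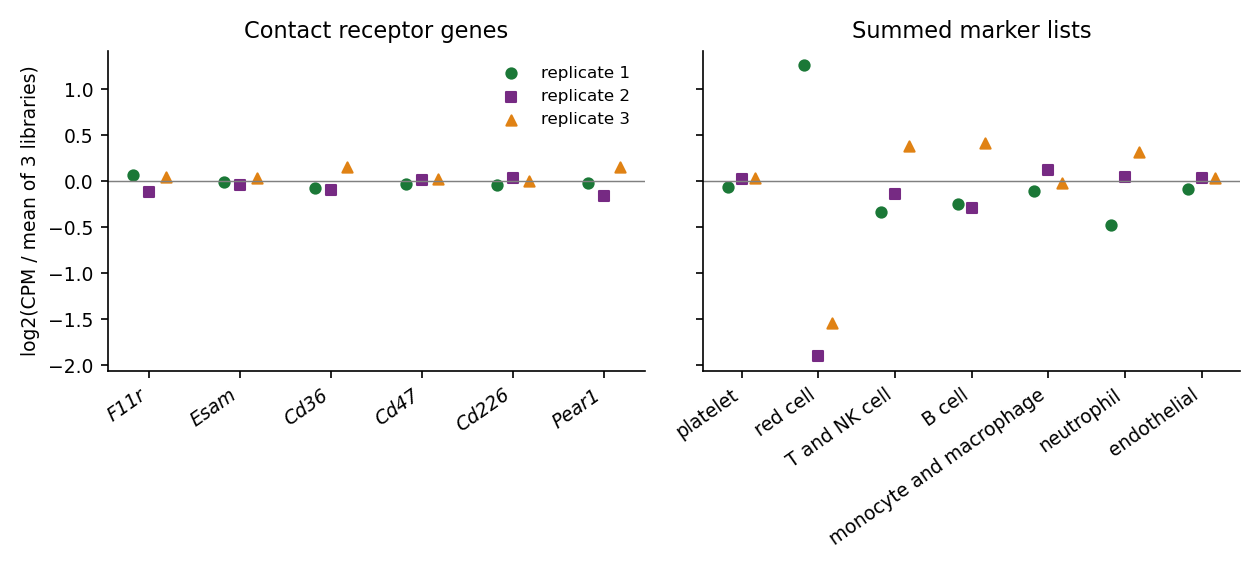
Deviation of each library from the mean of the 3, as log2 of CPM over the mean, for the 6 receptor genes (left) and for summed marker lists of blood and vessel cells (right). The receptor genes lie between -0.16 and 0.16, while red cell markers run from -1.90 to 1.26.

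Beside other surface genes of platelets, the members ranged from the level of the GPIb-IX-V genes down to that of the scavenger receptors. In GPIb-IX-V, the von Willebrand factor receptor, levels were highest for Gp9, at 2717 ± 64.7, with Gp5 at 405 ± 61.1, Gp1bb at 396 ± 35.8 and Gp1ba at 224 ± 24.8 CPM per 1000 bases (SD, n = 3). Esam, at 222 ± 6.35, was within the SD of Gp1ba. Of 12 tetraspanin genes 11 were in the tables, with a median of 31.0 CPM per 1000 bases and Cd9, Cd151 and Cd81 highest, and 10 were detected. Of 19 other immunoglobulin-superfamily receptors 17 were in the tables, with a median of 32.6, and 13 were detected. That list was led by Nptn at 1405 ± 31.6, Treml1, a platelet granule membrane receptor, at 1109.5 ± 41.8, and Slamf1, the first 2 above Cd226 with the deposited lengths. These side-by-side values carry no test, and those of Cd226 and Cd47 move with the length as above.

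**Figure D4:**
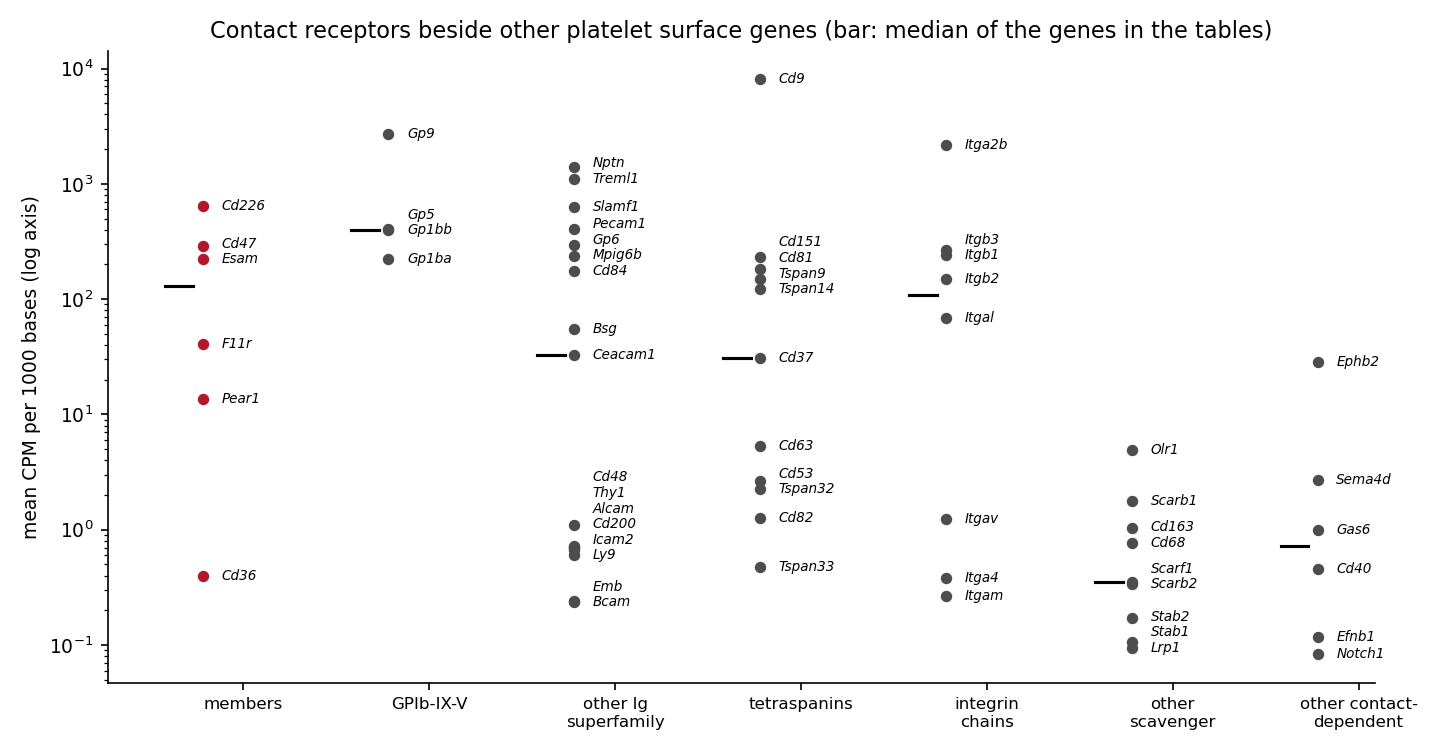
Mean CPM per 1000 bases (log axis) of the contact receptor genes (red) and of the genes in the tables from 6 other lists (grey); short bars are the medians over genes, and lengths are the deposited ones. Cd226, Cd47 and Esam lie in the range of GPIb-IX-V and the higher immunoglobulin-superfamily genes, and Cd36 in the range of the other scavenger receptors.

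Genes of like level and pattern were found by the largest log2 difference over the 3 libraries, per length, among 9100 other protein-coding genes. The nearest to Cd226 were Ninj1, a membrane-rupture protein gene (difference 0.065), and Atp6v1f, a proton pump subunit (0.079). Cd47 was nearest to Bcap31 (0.042) and the actin-severing gelsolin gene Gsn (0.048), and Esam to Arrb2, an arrestin (0.042), and Ndufa3 (0.049). For F11r they were Mapre2 (0.035) and Mcur1 (0.041), for Pear1 the GTPase gene Rab35 (0.015) and Fam89b (0.066), and for Cd36 the kinase gene Cdk7 (0.028) and Atf7 (0.049). With 3 libraries that differ little, such likeness is mainly one of level, and for Cd47 and Cd226 it holds for the deposited lengths.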

How the data were processed

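Platelet RNA libraries from 3 samples of 1 group were read as deposited. Per the submitters' processing notes, the authors used CASAVA 1.8.2, the aligner Subread, featureCounts, edgeR 3.11.5 and build mm10. Annotation, strand setting and handling of multi-mapping reads: not given in the sources used here. The deposited tables hold raw counts per Entrez gene and a gene length, for 9822 genes; they had been filtered by a rule not stated (no gene had a highest library below 0.238 CPM), so a gene without a row has no measured upper limit here. Library totals were 25189231 to 26974129 counts, where 3 counts, the limit that a count of 0 allows, are 0.111 to 0.119 CPM. Symbols came from the RefSeq table for GRCm38.p6 (9636 genes matched), as did coordinates unless GENCODE M21 is named.

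CPM used the plain total of counts. Detected means at least 1 CPM in every library, which 77.7% of all genes in the tables reached. The spread test used edgeR 4.0.16 (limma 3.58.1, R 4.3.3): an intercept, TMM factors of 0.954, 0.958 and 1.09, genes averaging at least 1 CPM, and an upper-tail F test of each quasi-likelihood dispersion over its trend. The spread test was tried on simulated counts drawn on the trend, with planted changes larger than the differences of the members, so its power for those is not known. DESeq2 1.42.0 was an alternative. Other steps used Python 3.11.15, NumPy 2.4.6, pandas 2.3.3, SciPy 1.17.1 and matplotlib 3.10.9. The members and gene lists were chosen with earlier results of these data known. Named were the members, the 3 highest genes per length of each list (all where 4 or fewer were in the tables), a fixed set of direct ligands and receptors of members, the 2 highest markers of each list by CPM and the 2 nearest genes of each member; other genes without a row, and Cadm1, Cdh5, Mapk8, Zdhhc4 and Zdhhc5, were chosen after values were seen. Protein features, planned for the members, were not analysed here. One gene that the naming rule takes is not reported here.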

Additional observations from a re-analysis of the deposited data

How the results depend on the processing

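Of 318 alternative values, 257 stayed within the spread or the 1.5-fold band, 59 moved and 2 reversed. Those moved include the TPM values of the members, which are in another unit. Those that stayed include the ratios between members on the TPM scale, which cannot differ. A wide spread lets large shifts count as staying: red cell markers, 20626 CPM, summed to 6312 CPM without replicate 1. The summed level of the members, 2711 CPM, was 2769 with totals without red cell marker genes and 3659 with totals without the 15 mitochondrially encoded genes, which left 72.3% to 75.3% of each total, and 2696 to 2738 with one replicate left out. The reversed results were the log2 ratios of Cd47 to Esam, -1.32, and of Cd47 to Thbs1, -0.12, with the GENCODE M21 exon union lengths, added after seeing the data. The number of genes called for spread between libraries, 19, was 11 with plain totals, 11 with a mean of 5 CPM or more (4351 genes and 5 members tested), 0 with a robust prior in edgeR (396 at an unadjusted p under 0.05), 49 as DESeq2 dispersion outliers and 1 to 32 with one replicate left out, 1 being without replicate 1; the cause was not tested. Members called were 0 under every one of these settings. Of the 12 nearest genes, 0 were kept with CPM in place of CPM per length, since the scale sets which genes are near. No paired analysis was possible because there is 1 group. The TPM scale keeps the order of the members by construction, since it rescales the values per length by 1 factor in each library. Markers other than those of platelets summed to 22467 CPM, and to 8235 without replicate 1 and 29979 without replicate 2. Depth limits Cd36, at 37 to 45 reads a library.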

Other observations

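Few other genes of contact-dependent signalling were in the tables. Of 18 listed, 6 had a row, and the median of these 6 was 0.731 CPM per 1000 bases against 1.49 over all genes. In every library 3 of the 6 reached 1 CPM. The ephrin receptor gene Ephb2, whose product meets ephrins on a neighbouring platelet, stood apart at 139, 139 and 132 CPM. Per length it lay below F11r by a log2 ratio of -0.50 ± 0.13 (SD, n = 3), in 3 of 3 libraries, and by -1.67 with GENCODE M21 lengths for both. Sema4d, a semaphorin of the platelet surface, was at 11.8 ± 1.92 CPM and Gas6, the ligand of the TAM receptors, at 2.60 ± 0.335 CPM, while the receptors Axl, Mertk and Tyro3 had no row.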
